A study of Homo sapiens with 4 samples.

Results

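The comparison described here sets RES-B, an enzalutamide-resistant derivative of the LNCaP prostate cancer line, against parental LNCaP that met the same drug for 48 h (LNCaP-ENZ48). Both were in 10 µM enzalutamide when harvested, so the contrast separates long-term resistant growth in the drug from a short exposure to it. The cells were chosen by library and by 1 filter, which kept barcodes with at least 1500 genes, at least 5000 unique molecular identifiers (UMIs, each standing for 1 captured RNA molecule) and under 20% of UMIs from mitochondrial genes. It kept 4239 of 4907 RES-B barcodes and 4565 of 4812 LNCaP-ENZ48 barcodes, together 8804 of the 15452 kept cells of the series. The other libraries were parental LNCaP in 0.1% DMSO for 48 h (LNCaP-DMSO, 2019 kept cells) and RES-A, a second resistant derivative also held in 10 µM enzalutamide (4629 kept cells), and their levels stand beside the compared pair. RES-A was selected by passaging LNCaP in rising enzalutamide. RES-B was selected in RD-162, a close relative of enzalutamide, and then maintained in enzalutamide, so drug history, months of culture and resistance cannot be told apart here. Living cells of each culture were sorted and captured as a single-cell suspension for 3′ RNA sequencing, with 1 library a side. There is therefore no replicate, no test and no p-value, and every interval below is a 95% interval that covers counting error only.

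Androgens switch on a set of genes in prostate cells, among them KLK3, which encodes prostate-specific antigen. Enzalutamide is an antiandrogen that keeps these genes from being driven. LNCaP is a luminal prostate cancer line from a lymph node metastasis that responds to androgen, and resistant derivatives are used to ask what prostate cancer cells express once they grow again in the drug. Among the routes known from other work are growth factor signalling, the glucocorticoid receptor and a change of lineage.

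The RES-B library held 57709230 UMIs in kept cells with a median of 12480 a cell, and LNCaP-ENZ48 held 68158371 with a median of 13968. Median genes a cell were close, at 3330 and 3280. The median mitochondrial share was 12.2% in RES-B and 9.38% in LNCaP-ENZ48, and ribosomal protein genes took 26.8% and 32.5% of UMIs. The 2 libraries shared 10 cell barcodes. The label was checked against markers. Levels are given as CPM (UMIs of a gene scaled to equal library totals). Of the luminal markers, KRT8, KRT18, EPCAM and CDH1 were higher in RES-B, with EPCAM at 170 CPM against 110 CPM in LNCaP-ENZ48 and CDH1 at 129.8 against 103 CPM. FOLH1 was lower, at 180 against 527 CPM, and so was HOXB13, at 92.1 against 156 CPM. Markers of other cell types were low in both libraries. The summed level in RES-B and LNCaP-ENZ48 was 4.04 and 3.68 CPM for 5 neuroendocrine markers, 2.51 and 3.33 CPM for 4 fibroblast markers, 0.381 and 0.161 CPM for 2 endothelial markers, 0.0173 and 0 CPM for 3 basal markers and 0 CPM in both for 3 immune markers. KRT5, TP63, CHGA, PTPRC and CD3E had 0 UMIs in both, while SYP made up most of the neuroendocrine sum (196 and 247 UMIs) and NCAM1 had 36 and 3 UMIs. The part of these markers in the results was not tested.

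To determine how far RES-B stood from acutely treated LNCaP, CPM was compared over the 7453 genes whose mean over both libraries reached 10 CPM. RES-B was at least 2-fold higher for 426 genes (5.72%) and at least 2-fold lower for 184 (2.47%). At 4-fold the counts were 71 higher (0.953%) and 51 lower (0.684%). These percentages are the background against which each gene list is read below. A gene under 10 CPM in either library could pass the minimum through its level in the other, and list counts past 2-fold include such members. The median log2 ratio (RES-B over LNCaP-ENZ48) of all 7453 genes was 0.20, not 0, with library totals as the scale. Trimmed mean of M-values (TMM) scaling shifted every ratio by -0.21 and turned the split of 426 higher and 184 lower into 226 higher and 274 lower, and median-of-ratios scaling gave 233 higher and 270 lower. The share of higher genes among all past 2-fold thus went from 69.8% to 45.2% and 46.3%. List medians below are raw log2 ratios, to be read against 0.20, unless they are said to lie above or below the median of all genes. Ratios just above 1 on the log2 scale, among them that of HSP90AB1, fell short of 2-fold under TMM.

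**Figure D1:**
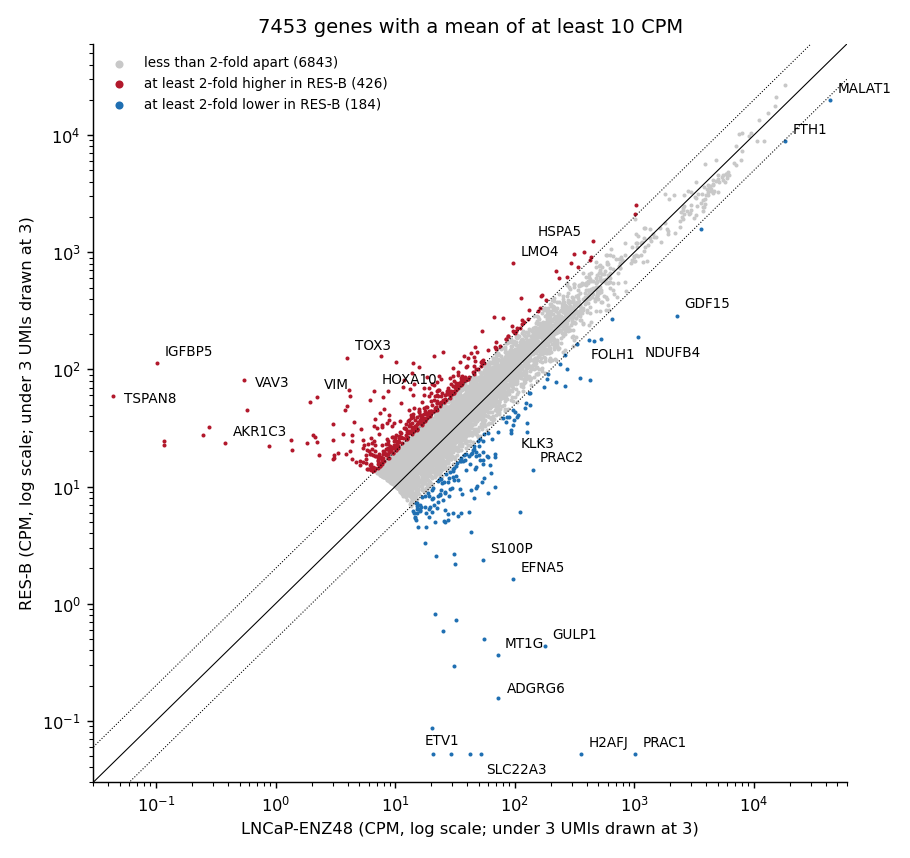
Level of each of the 7453 genes in LNCaP-ENZ48 (x axis) and RES-B (y axis), both in CPM on log scales, with genes at least 2-fold higher in RES-B in red, at least 2-fold lower in blue and equality as a solid line. Of the genes farthest from the line, TSPAN8, IGFBP5 and VAV3 stand above it and PRAC1, H2AFJ and SLC22A3 stand at the lower edge, where under 3 UMIs were counted in RES-B.

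The 12 highest and 12 lowest ratios described next are those among genes with at least 50 CPM in either library, so genes of lower level with ratios as far from 0, such as AKR1C3 at 5.95, are not among them. The 3 highest were almost silent in acutely treated cells. TSPAN8, a tetraspanin of the cell surface (chr12:71125085-71441898, minus strand), had 3 UMIs in LNCaP-ENZ48 and 3425 in RES-B, or 0.044 and 59.3 CPM, with 0.0898 CPM in LNCaP-DMSO and 0.682 CPM in RES-A. Its log2 ratio was 10.40 with a counting interval from 8.85 to 12.68. IGFBP5, a secreted protein that binds insulin-like growth factors (chr2:216672105-216695549, minus strand), had 7 UMIs in LNCaP-ENZ48 and 6574 in RES-B, and its level was 0.018 CPM in LNCaP-DMSO, 0.103 in LNCaP-ENZ48, then 300 in RES-A and 114 in RES-B. TSPAN8 was thus high in 1 of the 4 libraries, and IGFBP5 in both resistant lines with the higher level in RES-A. VAV3, an exchange factor that activates small GTPases, went from 0.543 CPM in LNCaP-ENZ48 to 81 CPM in RES-B, a 149-fold difference, and stood at 0.557 CPM in LNCaP-DMSO and 1.57 CPM in RES-A.

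The other 9 of these 12 highest ratios, 8 of them named here, lay between 3.15 and 4.98 on the log2 scale. TOX3, a chromatin protein with an HMG box, had 3.99 CPM in LNCaP-ENZ48 and 126 CPM in RES-B. ADRA2A, an alpha-2 adrenergic receptor, had 1.94 and 52.7 CPM. VIM, the mesenchymal intermediate filament vimentin, had 2.22 and 58.6 CPM, below its 211 CPM in RES-A. PLA2G2A, a secreted phospholipase, had 7.61 and 130 CPM. LTN1, a ubiquitin ligase that clears stalled nascent chains from ribosomes, had 10.1 CPM in LNCaP-ENZ48, then 10.1 in RES-A and 116.2 in RES-B. HOXA10 had 6.68 CPM in LNCaP-ENZ48, 65.8 in RES-B and 0.494 in RES-A, so that the resistant lines lay on opposite sides of parental cells. TUBA1A, an alpha-tubulin, had 6.22 and 55.3 CPM with 108 CPM in RES-A, and the zinc finger gene ZNF503 had 4.17 and 59.6 CPM.

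The genes with the lowest ratios included several with no or almost no molecule in RES-B. PRAC1, a small protein gene abundant in prostate and distal colon, was counted 69127 times in LNCaP-ENZ48 and 2 times in RES-B, at 1014 and 0.0347 CPM (log2 ratio -14.84, counting interval from -17.88 to -12.98). It stood at 776 CPM in LNCaP-DMSO and 394 CPM in RES-A, so RES-B alone of the 4 libraries was near 0. H2AFJ, a histone H2A variant (chr12:14774405-14778002, plus strand), had 24479 UMIs in LNCaP-ENZ48 and 0 in RES-B, which with a floor of 3 UMIs makes it at least 6909-fold lower. SLC22A3, an organic cation transporter, had 3561 UMIs and 0, at least 1005-fold lower, and ETV1, an ETS transcription factor rearranged in LNCaP that lay below the 50 CPM limit, had 2861 and 0, at least 807-fold lower. H2AFJ, SLC22A3 and ETV1 also had 0 UMIs in RES-A.

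ADGRG6, an adhesion G protein-coupled receptor, had 4911 UMIs in LNCaP-ENZ48 and 9 in RES-B, and GULP1, an adaptor of engulfment receptors, had 12199 and 25. Both were also low in RES-A, at 0.17 and 0.0341 CPM, with GULP1 lower there than in RES-B. MMP16, a membrane-anchored metalloproteinase, and EFNA5, an ephrin ligand, were lower in RES-B than in any other library. MMP16 had 55.9 CPM in LNCaP-ENZ48, then 15.2 in RES-A and 0.503 in RES-B. EFNA5 had 97.5 CPM in LNCaP-ENZ48, then 90.1 in RES-A and 1.61 in RES-B. S100P, a calcium-binding protein, had 54 and 2.36 CPM. GDF15, a secreted stress cytokine of the TGF-beta superfamily, was the member with the highest parental level, at 3887 CPM in LNCaP-DMSO, 2280 in LNCaP-ENZ48, then 322 in RES-A and 288 in RES-B.

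**Figure D2:**
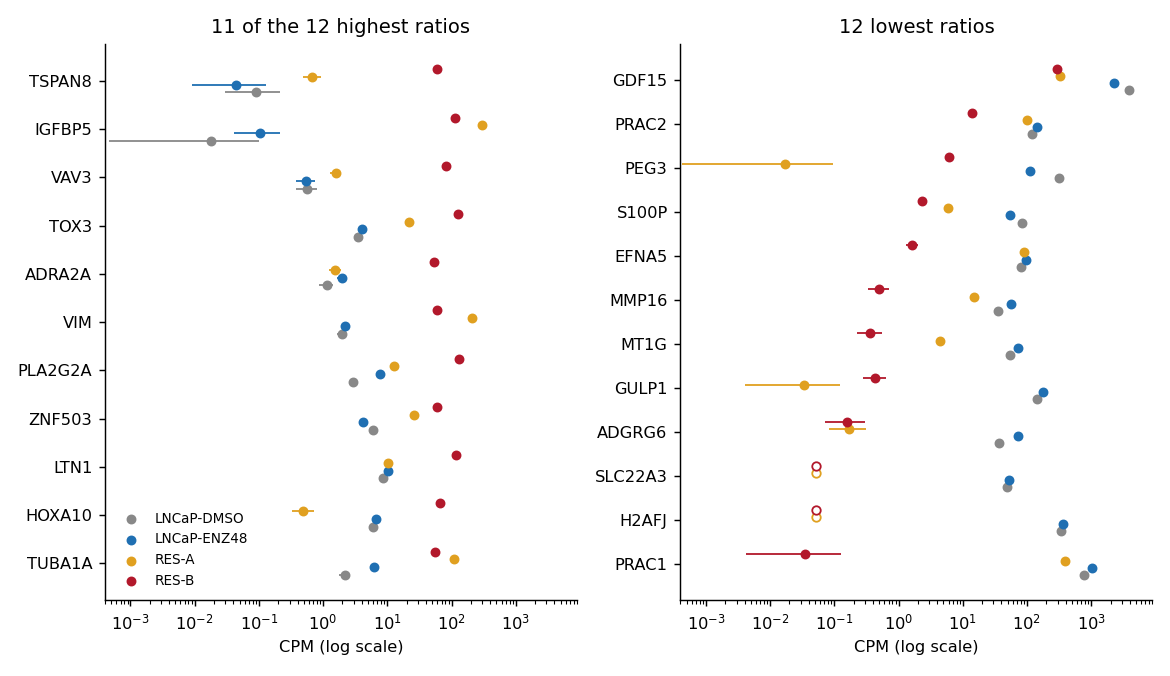
Level in CPM (log scale) in each of the 4 libraries, for 11 of the 12 highest (left) and the 12 lowest (right) RES-B over LNCaP-ENZ48 ratios among genes with at least 50 CPM in either of those 2 libraries, with exact Poisson 95% intervals as bars and open circles at the 3-UMI floor for 0 UMIs. RES-B sits right of both parental libraries for every gene on the left and left of both for every gene on the right, while RES-A lies on either side.

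Read as sets of 12 genes, these differences were seen in most cells of each library, although single genes could be uneven. After every cell was thinned to 5000 UMIs, a RES-B cell held at least 1 UMI of a median of 3 of the 12 highest-ratio genes (range 0 to 10), and a LNCaP-ENZ48 cell of 0 (range 0 to 3). Of the 12 lowest-ratio genes the median was 1 in RES-B (range 0 to 3) and 5 in LNCaP-ENZ48 (range 1 to 11). At least 4 of these 12 were found in 89.6% of LNCaP-ENZ48 cells and in none of the 4239 RES-B cells. Since the genes were chosen by their ratio, this only describes how the difference was shared out among cells.

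Single genes differed in how evenly cells carried them. TSPAN8 was seen in 23.2% of thinned RES-B cells (40.9% unthinned), near the 27.3% that even Poisson sampling of its mean would give, and in 0.0438% of LNCaP-ENZ48 cells. IGFBP5 was seen in 16% of thinned RES-B cells (24.4% unthinned) where its mean would give 46.4%, with a Fano factor (variance over mean) of 13.2. A minority of RES-B cells thus held most IGFBP5 molecules. CAMK2N1 was uneven in both libraries, seen in 59.7% of RES-B cells against 96.6% by Poisson sampling and in 23.5% of LNCaP-ENZ48 cells against 65.4%. PRAC1 was seen in 98.4% of thinned LNCaP-ENZ48 cells and in 1 RES-B cell. The share was 0 of 4239 RES-B cells for H2AFJ, which allows a share of cells with a UMI of up to 0.0708% when 3 cells are taken as the limit for a count of 0, and of up to 0.087% by the exact Clopper-Pearson interval. A culture of 1 line holds no cell type that lacks a gene, so the share that free RNA gives could not be set beside these.

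NR3C1, the glucocorticoid receptor, had 58 UMIs in RES-B and 3 in LNCaP-ENZ48, and even its RES-B level of 1.01 CPM lay below the 10 CPM minimum.

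Genes that androgen switches on differed in direction. Of 34 such genes 19 passed the minimum, 3 were at least 2-fold higher in RES-B and 2 at least 2-fold lower, and their median of 0.13 lay close to that of all genes and was -0.07 under TMM. KLK3 (chr19:50854915-50860764, plus strand) stood at 733 CPM in LNCaP-DMSO, 93.8 in LNCaP-ENZ48, then 0.0341 in RES-A and 30.4 in RES-B, a log2 ratio of -1.63. RES-B was thus below both parental libraries for KLK3, and RES-A was near 0. C1orf116 had 6.43 CPM in LNCaP-ENZ48 and 21.1 CPM in RES-B, near its LNCaP-DMSO level of 23.8 CPM. ABCC4, an export pump, was lower, at 26.2 and 5.03 CPM.

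Other genes of the prostate panel differed by less than 2-fold. TMPRSS2, a surface protease, had 25.6 CPM in LNCaP-ENZ48 and 19.2 in RES-B, and FKBP5, a chaperone partner of steroid receptors, had 10.8 and 15.6 CPM. FOXA1, a pioneer factor that opens chromatin, had 147 and 124 CPM, HOXB13 had 156 and 92.1 CPM, and GATA2 had 153 and 80.4 CPM.

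Of 12 genes that androgen holds down, 5 passed the minimum, and 3 of these were at least 2-fold lower in RES-B. FOLH1, which encodes prostate-specific membrane antigen, had 327 CPM in LNCaP-DMSO, 527 in LNCaP-ENZ48, then 239 in RES-A and 180 in RES-B. UGT2B17, which conjugates androgens for removal, had 27.5 and 5.22 CPM in the compared pair, and DDC, dopa decarboxylase, had 68.3 and 17.8 CPM. The member on the other side was CAMK2N1, an inhibitor of CaM kinase II, with 65.3 CPM in LNCaP-DMSO, 221 in LNCaP-ENZ48, then 46.6 in RES-A and 689 in RES-B. FOLH1 was thus below its untreated level in RES-B, whereas CAMK2N1 was above its level after 48 h of drug.

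The prostate kallikrein genes lie side by side on chromosome 19, yet they took 3 different positions. KLK3 was 3.09-fold lower in RES-B. KLK2, a protease that activates the KLK3 product, had 26.2 CPM in LNCaP-ENZ48 and 23.2 in RES-B (log2 ratio -0.17, interval from -0.28 to -0.07). KLK4 had 34.6 and 64.9 CPM (log2 ratio 0.91, interval from 0.83 to 0.98). All 3 were lower than in LNCaP-DMSO, at 733, 321 and 146 CPM, and all 3 were at or under 0.29 CPM in RES-A. KLK2 and KLK3 are close paralogs, so reads that match both are a source of uncertainty in either count.

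The promoter windows of KLK3 and KLK2 are shown because these neighbours, which are alike in sequence and both under androgen control, differed in ratio. Each window runs from 250 bases before to 50 after the start of the gene (RefSeq, GRCh38.p14), and capitals mark every match, on either strand, to AGAACA (a half-site of steroid receptors), the TATA box core TATAAA, the Sp1 core GGGCGG and the box CCAAT. The KLK3 window, chr19:50854665-50854964 on the plus strand, holds 1 AGAACA, 1 TATAAA and 1 GGGCGG. The KLK2 window, chr19:50873189-50873488 on the plus strand, holds 1 TATAAA, 1 GGGCGG and 1 CCAAT.
KLK3: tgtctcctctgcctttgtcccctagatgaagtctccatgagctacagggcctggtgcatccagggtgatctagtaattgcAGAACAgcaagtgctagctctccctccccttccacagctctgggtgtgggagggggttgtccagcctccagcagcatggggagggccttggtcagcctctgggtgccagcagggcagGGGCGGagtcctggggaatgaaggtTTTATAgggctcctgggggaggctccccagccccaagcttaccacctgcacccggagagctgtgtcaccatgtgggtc
KLK2: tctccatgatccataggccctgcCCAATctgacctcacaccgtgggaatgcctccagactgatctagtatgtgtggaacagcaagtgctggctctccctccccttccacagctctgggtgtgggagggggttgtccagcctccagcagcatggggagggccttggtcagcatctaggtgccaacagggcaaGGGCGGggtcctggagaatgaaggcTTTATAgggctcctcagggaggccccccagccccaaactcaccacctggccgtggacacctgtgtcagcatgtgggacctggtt
A match is a run of letters and not a bound site, and the lack of one says only that these letters are not in the window.

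PRAC1 and its neighbours showed a graded difference over a short stretch of chromosome 17. PRAC1 (chr17:48721719-48722518, minus strand) and PRAC2 (chr17:48723185-48724758, plus strand) are read away from each other from starts 666 bases apart, and HOXB13 (chr17:48724763-48728750, minus strand) lies beyond PRAC2. From LNCaP-ENZ48 to RES-B, PRAC1 went from 1014 to 0.0347 CPM, PRAC2 from 141 to 13.9 CPM and HOXB13 from 156 to 92.1 CPM. RES-A held PRAC1 and PRAC2 at 394 and 98.5 CPM. Its HOXB13 level was 91.7 CPM, close to that of RES-B, so the lower HOXB13 level was shared by both resistant lines. The promoter windows of PRAC1 (chr17:48722469-48722768, minus strand) and PRAC2 (chr17:48722935-48723234, plus strand) are shown since this divergent pair was lower together, with the same motifs in capitals. Each holds 1 CCAAT and 1 GGGCGG, and they hold 9 and 10 CG pairs.
PRAC1: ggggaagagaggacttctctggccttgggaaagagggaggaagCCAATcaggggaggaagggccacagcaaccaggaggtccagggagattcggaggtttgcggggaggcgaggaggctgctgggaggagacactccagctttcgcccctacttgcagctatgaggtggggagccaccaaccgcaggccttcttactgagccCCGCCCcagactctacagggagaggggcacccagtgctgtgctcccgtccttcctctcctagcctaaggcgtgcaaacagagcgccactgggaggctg
PRAC2: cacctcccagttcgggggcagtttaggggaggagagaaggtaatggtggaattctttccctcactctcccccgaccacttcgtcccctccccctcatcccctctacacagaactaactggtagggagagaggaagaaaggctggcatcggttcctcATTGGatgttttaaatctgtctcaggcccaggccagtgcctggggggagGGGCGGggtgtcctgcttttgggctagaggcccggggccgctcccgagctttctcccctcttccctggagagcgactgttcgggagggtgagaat
Over the 6177 tested genes with a window the median was 27 CG pairs.

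Metallothionein genes, whose small proteins bind zinc and copper, also differed in direction within 1 cluster on chromosome 16. MT1G had 72.2 CPM in LNCaP-ENZ48 and 0.364 in RES-B, 199-fold lower. MT1F had 17.5 and 60.9 CPM, MT1X 273 and 523 CPM, and MT2A 1010 and 1912 CPM. So 1 gene of the 4 in the cluster that passed the minimum was near 0 while the other 3 were higher, by 0.92 to 1.79 on the log2 scale. RES-A was below both parental libraries for all 4, with MT2A at 296 CPM and MT1G at 4.40 CPM. The full list of metallothioneins and zinc transporters had 19 members past the minimum, 3 higher and 3 lower past 2-fold. The zinc exporter SLC30A1 had 5.87 and 20.5 CPM and SLC30A4 had 85.8 and 39.6 CPM.

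Steroid-handling clusters differed too. AKR1C3, which converts androstenedione to testosterone, had 0.381 CPM in LNCaP-ENZ48 and 23.6 CPM in RES-B (61.8-fold), and its neighbours AKR1C1 and AKR1C2 had 0.132 and 0.249 CPM in LNCaP-ENZ48 and 3.41 and 2.46 CPM in RES-B. All 3 were also above parental levels in RES-A, with AKR1C3 at 11.1 CPM. AKR1C3 was the only one of 14 steroid converting enzymes past the minimum that was at least 2-fold higher, and none was at least 2-fold lower. UGT2B15, a glucuronidating enzyme next to UGT2B17, had 33.6 and 25.2 CPM, so the UGT2B17 difference was not shared by it. AKR1C, UGT2B and metallothionein genes have close paralogs, and reads that match several are not counted for any.

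In the PEG3 domain of chromosome 19, which is read from the paternal copy, PEG3 stood at 314 CPM in LNCaP-DMSO, 110 in LNCaP-ENZ48, then 0.017 in RES-A and 6.05 in RES-B. ZIM2, which shares its start, had 2.64 CPM in LNCaP-ENZ48 and 0.156 in RES-B, and MIMT1 across from it had 2.51 and 0.78 CPM. All 3 were lower in RES-B and at 1 UMI or 0 in RES-A. Of 10 imprinted genes past the minimum, 3 were at least 2-fold lower (PEG3, GRB10 and PHLDA2) and none was at least 2-fold higher, with a median 0.68 below that of all genes. GRB10, an adaptor that restrains insulin receptor signalling, had 90.4 and 39.5 CPM.

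Growth factor signalling was represented by single large differences rather than by whole lists. In the IGF system 5 of 15 members passed the minimum. IGFBP5 and IGFBP3 were higher, IGFBP3 at 1.34 CPM in LNCaP-ENZ48 and 25.2 CPM in RES-B, while IGFBP2, the neighbour of IGFBP5 on chromosome 2, had 149 and 109 CPM. In a list of the EGFR and FGFR families, ligands and related signalling genes 6 of 29 passed. ERBB3, the kinase-poor partner of ERBB2, had 46.5 and 119 CPM and FGF13 had 3.33 and 19.2 CPM, whereas DUSP4, a phosphatase that dampens MAP kinases, had 21.6 and 0.814 CPM. EGFR itself had 20 and 15.5 CPM.

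Of 31 genes of PI3K and small GTPase signalling, 20 passed the minimum, 4 were at least 2-fold higher and none at least 2-fold lower, with a median 0.30 above that of all genes. Beside VAV3 these were DEPTOR, an inhibitor of mTOR, with 5.34 and 21.4 CPM, RHOB with 22.9 and 59.5 CPM, and RHOU with 7.2 and 16.5 CPM. In the Wnt pathway 7 of 37 passed, with WNT5A, a ligand of the non-canonical branch, at 3.81 and 45.2 CPM and WNT7B at 14.7 and 5.49 CPM. In the Notch pathway list 11 of 27 passed, and its HES genes differed in sign. HES1 had 7.09 and 31.9 CPM, while HES4 had 128 and 34.6 CPM and HES6 had 51.3 and 17 CPM. Of 8 ETS factors past the minimum, ELF1 was higher (13 and 28.6 CPM) and ETV1 lower, and of 5 ephrins and Eph receptors EFNA1 and EFNB2 were higher and EFNA5 lower.

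Protein-folding genes made up the list with the highest share at least 2-fold higher in RES-B, among lists with at least 20 members past the minimum. Of 25 endoplasmic reticulum (ER) chaperone and unfolded protein response genes past the minimum, 8 (32%, against 5.72% of all genes) were at least 2-fold higher in RES-B and none at least 2-fold lower, and 24 had a ratio above 0. The median was 0.88, which is 0.68 above that of all genes, and 0.67 under TMM. HSPA5, the main Hsp70 of the ER, had 245 CPM in LNCaP-DMSO, 311 in LNCaP-ENZ48, then 288 in RES-A and 959 in RES-B. CALR, a lectin chaperone, had 381 CPM in LNCaP-ENZ48 and 998 in RES-B, and HSP90B1, the Hsp90 of the ER, had 449 and 1255 CPM. SEL1L, a subunit of the ER degradation complex, had 30.3 and 88.4 CPM. The summed level of the list was 3675 CPM in LNCaP-DMSO, 3881 in LNCaP-ENZ48, then 3788 in RES-A and 7753 in RES-B, so the level in RES-B stood apart from all 3 others. ERN1, the sensor that splices XBP1, was level at 17 and 16.3 CPM, while XBP1 had 164 and 333 CPM.

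Cytosolic heat shock genes leaned higher as well. Of 19 past the minimum 5 were at least 2-fold higher in RES-B and none at least 2-fold lower. HSP90AA1, the inducible cytosolic Hsp90, had 931 CPM in LNCaP-DMSO, 1026 in LNCaP-ENZ48, then 2727 in RES-A and 2509 in RES-B, and HSP90AB1 had 1020 in LNCaP-ENZ48 and 2120 in RES-B. HSPH1 had 34.7 and 115 CPM, and HSPB1, a small heat shock protein, was the lowest at 419 and 241 CPM. None of the 35 genes of the ATF4 and amino acid response past the minimum differed by 2-fold in either direction. Their ratios ran from -0.63 to 0.74.

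Hypoxia response genes depended on which RES-B cells were read. Over all kept cells 20 of 25 passed the minimum, 5 were at least 2-fold higher and none at least 2-fold lower. INSIG2, which retains the sterol sensor SCAP in the ER, had 21.1 and 131 CPM, EGLN1, an oxygen-sensing hydroxylase, 15.9 and 45.6 CPM, and VEGFA 31.4 and 70.7 CPM. Cells were then divided within each library at 10% mitochondrial UMIs. Only 808 RES-B cells (19.1%) were under 10%, against 3063 LNCaP-ENZ48 cells (67.1%). Among cells under 10%, 16 of 22 hypoxia genes were at least 2-fold higher in RES-B with a median log2 ratio of 1.44, and among cells from 10 to 20% it was 4 of 18 with a median of 0.46. Over all genes compared in cells under 10%, 7.06% were at least 2-fold higher and the median was 0.23. In cells from 10 to 20% these were 6.83% and 0.24. The summed level of the list was 4504 CPM in low-mitochondrial RES-B cells and 1689 CPM in the others, and 1789 and 1418 CPM in LNCaP-ENZ48. The low-mitochondrial RES-B cells were thus the group that stood apart.

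Named genes showed the same division. VEGFA, the angiogenic ligand, had 158 CPM in low-mitochondrial RES-B cells and 53 CPM in the others, against 31.7 and 30.8 CPM in LNCaP-ENZ48. NDRG1 had 149 and 28.9 CPM in RES-B and 36.5 and 19.3 CPM in LNCaP-ENZ48. CA9, a carbonic anhydrase that hypoxia induces, had 10.3 and 1.04 CPM in RES-B and under 1 CPM in LNCaP-ENZ48. Glycolysis followed. Of 20 glycolysis genes past the minimum in low-mitochondrial cells 13 were at least 2-fold higher in RES-B with a median of 1.11, and none of 16 in the other cells, with a median of 0.36. The shares over all genes in the same cells were 7.06% and 6.83%, as given above. PGK1, which yields the first ATP of the pathway, had 1396 and 450 CPM in the 2 groups of RES-B cells and 447 and 278 CPM in LNCaP-ENZ48. The summed glycolysis level was 14751 and 7360 CPM in RES-B and 6829 and 5790 CPM in LNCaP-ENZ48. In RES-A it was 9764 and 8898 CPM, above LNCaP-ENZ48 in both groups of cells. The ER chaperone list showed no such division, with medians of 0.83 and 0.90. KLK3 also differed, at 66.8 and 23 CPM in RES-B, so that its log2 ratio was -0.51 in low-mitochondrial cells and -1.98 in the others. The part of mitochondrial RNA, cell state and cell handling in this was not tested.

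**Figure D3:**
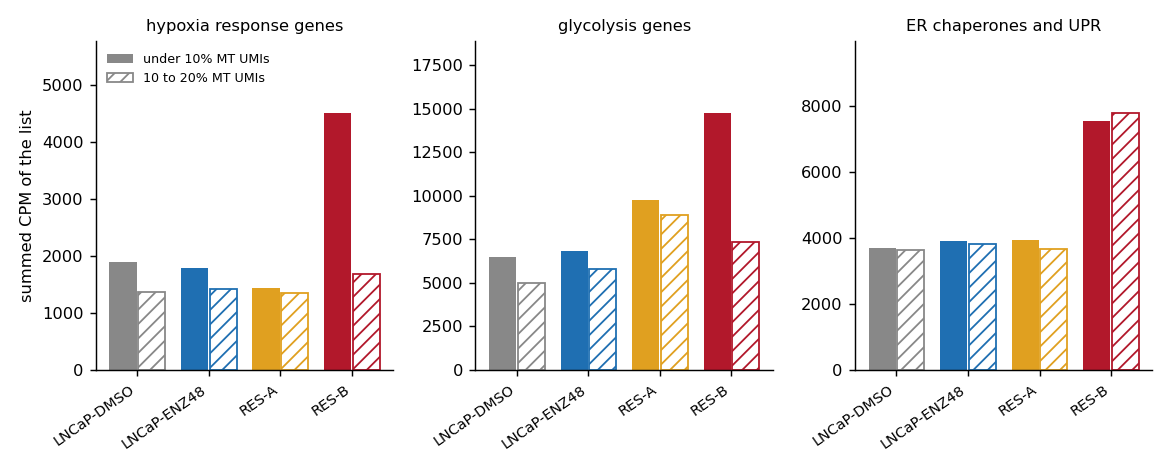
Summed CPM of the hypoxia, glycolysis and ER chaperone lists in cells with under 10% mitochondrial UMIs (filled bars) and 10 to 20% (hatched bars) of each library, with axes from 0. For hypoxia genes the 808 low-mitochondrial RES-B cells stand at 4504 CPM while the other 7 groups lie between 1343 and 1886 CPM.

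Lipid synthesis genes were read next. Of 21 cholesterol synthesis genes past the minimum 4 were at least 2-fold higher and none at least 2-fold lower, with a median of 0.63 and ratios from -0.30 to 1.42. SQLE (30.8 and 79.8 CPM), ACAT2 (26.1 and 61 CPM) and FDPS (96.7 and 213 CPM) were among them, while SREBF1, a regulator of lipid synthesis, had 50.6 and 41.8 CPM. Among 17 fatty acid synthesis genes past the minimum ELOVL6, which elongates palmitate, was at least 2-fold higher at 13.1 and 45.3 CPM, and FASN had 78.6 and 151 CPM. The median of that list was 0.01 above that of all genes.

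Interferon and antigen presentation genes lay on opposite sides of the median of all genes. Of 36 interferon stimulated genes 7 passed, 2 were at least 2-fold lower and none at least 2-fold higher. These were IFITM2 (27.5 and 5.84 CPM) and IFITM3 (97.3 and 33.7 CPM), membrane proteins that block viral entry and are close paralogs. Of 10 MHC class I pathway genes past the minimum, 9 had a ratio above 0 and 1, CALR, was past 2-fold. TAPBP, which loads peptides, had 23.8 and 43.4 CPM, whereas B2M, the light chain, had 322 and 305 CPM.

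Among iron and redox genes ferritin stood out by its level. FTH1, the ferritin heavy chain, had 15213 CPM in LNCaP-DMSO, 18195 in LNCaP-ENZ48, then 14377 in RES-A and 8896 in RES-B, which was the lowest of the 4. HMOX1, which opens haem and frees its iron, had 47.3 and 14.6 CPM. These were the only 2 of 14 iron handling genes past 2-fold over all kept cells, both lower. FTH1 fell short of 2-fold within each group of cells divided at 10% mitochondrial UMIs, with log2 ratios of -0.72 under 10% and -0.99 from 10 to 20%. Of 27 glutathione and NRF2 genes past the minimum AKR1C3 and GSTA4 were higher and HMOX1 lower, and TXNRD1 had 307 and 158 CPM. In the 4 S100 genes past the minimum S100P was lower, and S100A11 had 397 and 544 CPM.

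**Figure D4:**
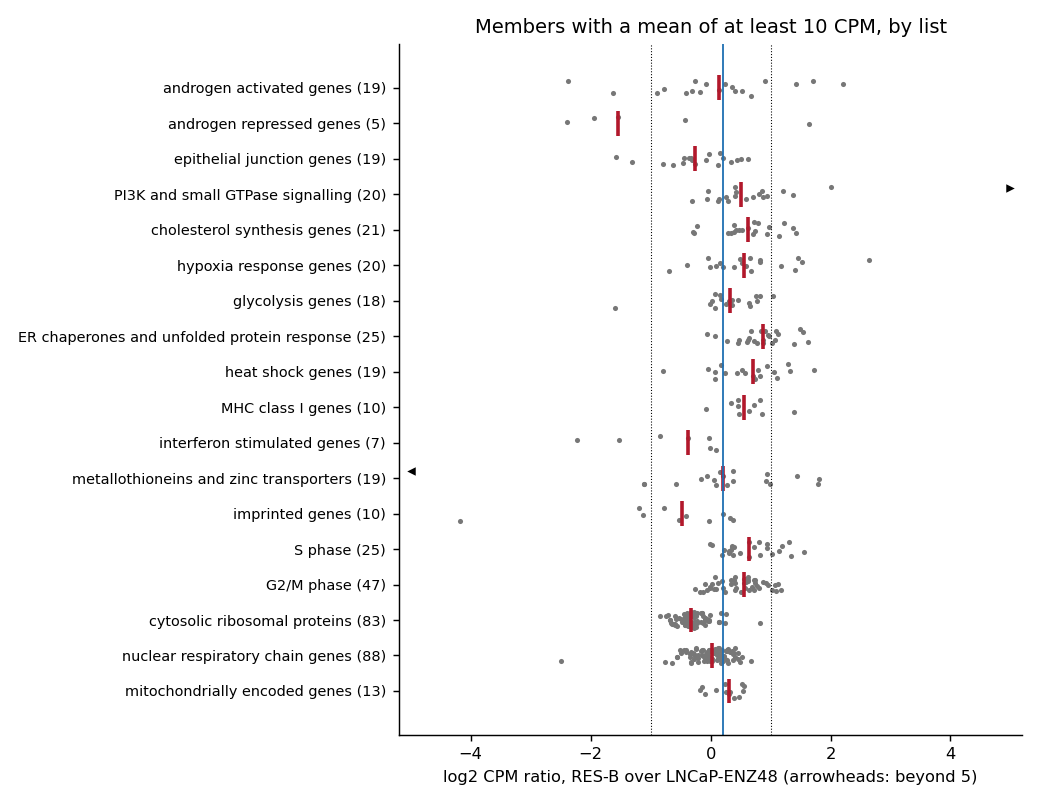
Log2 CPM ratio (RES-B over LNCaP-ENZ48) of every member past the 10 CPM minimum in 18 gene lists (grey points, number of members in brackets), with the list median in red, the median of all genes (0.20) as a blue line and 2-fold limits dotted. The ER chaperone and heat shock medians lie right of the blue line and the interferon, imprinted and ribosomal protein medians left of it.

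Lineage genes were read next. KRT18, a luminal keratin, had 431 CPM in LNCaP-ENZ48 and 907 in RES-B, and KRT8 had 186 and 248 CPM. All 3 keratins past the minimum had ratios above that of all genes. Of 28 neuroendocrine genes 4 passed, and ENO2 was lower at 19.3 and 6.39 CPM. Of 30 mesenchymal genes 5 passed, of which VIM was past 2-fold, and FN1 had 23.8 and 12.8 CPM. Epithelial junction genes leaned lower, with 2 of 19 at least 2-fold lower, none higher and a median 0.46 below that of all genes. These were DSC2, a desmosomal cadherin (28.5 and 9.55 CPM), and OCLN, a tight junction protein (71.9 and 29.1 CPM). Surface antigens used as targets in prostate cancer were lower in 4 of 12 cases and higher in 2. STEAP1 had 220 and 77.8 CPM, STEAP2 276 and 101 CPM, NCAM2 265 and 72.2 CPM and FOLH1 is given above, while CD24 had 8.11 and 46.3 CPM and ERBB3 was higher as well. Of 14 tetraspanins past the minimum TSPAN8 and TSPAN1 (18.5 and 47.8 CPM) were higher and TSPAN3 and TSPAN4 lower.

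Of 39 HOX genes found 4 passed, with HOXA10 and HOXC6 (12.1 and 31.5 CPM) at least 2-fold higher, HOXC9 at 12.8 and 24.5 CPM and HOXB13 lower. Among 6 other nuclear receptors past the minimum none differed by 2-fold, NR2F6 being highest at 83.3 and 156 CPM. Of 7 glucocorticoid induced genes past the minimum MAOA, monoamine oxidase A, was lower at 126 and 29.3 CPM and none was at least 2-fold higher. Of 5 cancer testis genes PAGE1 (11.6 and 70.4 CPM) and MAGEA12 (31.3 and 63.1 CPM) were higher and MAGEA10 (41.2 and 6.03 CPM) lower. Of 27 genes of Polycomb and DNA methylation BMI1 was past 2-fold, at 6.97 and 18.1 CPM, while EZH2 had 21.6 and 29.2 CPM and DNMT3A 15 and 7.73 CPM. Among 11 histone genes expressed outside S phase H2AFJ was lower, and H3F3A had 1823 and 3124 CPM.

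More RES-B cells were called as cycling than LNCaP-ENZ48 cells. With every cell thinned to 5000 UMIs and phases called from S and G2/M gene scores, 73.2% of RES-B cells were in G1 (exact binomial interval from 71.9 to 74.6%) against 82% of LNCaP-ENZ48 cells (80.9 to 83.1%). The G2/M share was 20.4% and 14.3%, and the S share 6.37% and 3.66%. LNCaP-DMSO had 72.8% in G1, close to RES-B, and RES-A 68.5%. Calls per cell read gene scores and free RNA alike, so levels are given too. Of 25 S phase genes past the minimum 6 were at least 2-fold higher, among them GMNN, a licensing inhibitor (22.2 and 65.1 CPM), and CDC6 (7.91 and 20 CPM), and of 47 G2/M genes 5 were, among them NEK2 (16.2 and 36.6 CPM). None in either list was at least 2-fold lower. In cells called G1 alone the list medians were 0.13 and 0.28, against 0.64 and 0.55 in all cells. The median of all genes in G1 cells was 0.20. G1 was called from these same lists, so smaller list medians there follow at least in part from the call.

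Inhibitors of the cycle and death genes were lower in single cases. CDKN1A, the p21 inhibitor, had 44.3 and 19.4 CPM and was the only one of 17 G1 regulators past 2-fold. CCND1 had 264 and 148 CPM and RB1 10.8 and 19.4 CPM. BBC3, a BH3-only protein that p53 induces, had 19 and 8.75 CPM and was the only one of 11 BCL2 family genes past 2-fold, with BAX at 55.9 and 37.3 CPM. MYC had 115 CPM in LNCaP-ENZ48 and 129 in RES-B, a log2 ratio of 0.17 that was -0.04 under TMM.

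Nuclear RNAs and ribosomal protein genes, among the most abundant transcripts, leaned lower. MALAT1, a long RNA of nuclear speckles, had 30866 CPM in LNCaP-DMSO, 43678 in LNCaP-ENZ48, then 17344 in RES-A and 19970 in RES-B, and NEAT1, the scaffold of paraspeckles, had 3605 CPM in LNCaP-ENZ48 and 1595 in RES-B. Both resistant lines were below both parental libraries. Of 13 small nucleolar RNA host genes and nuclear RNAs past the minimum 3 were at least 2-fold lower, SNHG8 being the third at 652 and 270 CPM. Cytosolic ribosomal protein genes were lower by little but together, with 7 of 83 ratios above 0, a median of -0.32 and none past 2-fold. The 13 mitochondrially encoded genes had a median of 0.30, which was -0.12 among cells under 10% mitochondrial UMIs. That limit is set on the UMIs of these same genes, so the change follows at least in part from the limit itself. Of 88 nuclear respiratory chain genes 1 was past 2-fold. This was NDUFB4, an accessory subunit of complex I, with 728 CPM in LNCaP-DMSO, 1070 in LNCaP-ENZ48, then 1009 in RES-A and 190 in RES-B, so it was low in RES-B alone.

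The lists that the study defined or took up were read in the same way, and those it chose on these samples are not independent evidence of a direction. PROSGenesis, a set linked to prostate stem-like cells, had 11 of 47 members at least 2-fold higher (23.4%) and 1 lower. LMO4, a LIM-domain regulator, had 97.6 CPM in LNCaP-ENZ48 and 802 in RES-B, and SOX9 had 4.37 and 27.8 CPM. Of the Persist set, which marks cycling persistent cells, 2 of 17 were higher (CENPF and DYNLL1) and none lower, with a median equal to that of all genes within 0.01. The mTORC1 signaling set had 6 of 35 higher and none lower, among them HSPA5, CALR and IGFBP5. MYC targets V1 had 4 of 192 higher, SYNCRIP the highest at 48.8 and 141 CPM, and MYC targets V2 had 1 of 50, MCM4, with none lower in either. Among NEPC (neuroendocrine prostate cancer) genes, the upregulated set had STMN1 higher and ENO2 lower of 9, and the downregulated set had 3 of 25 higher, C1orf116 among them, and 5 lower, among them STEAP1, STEAP2 and KLK3.

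Ratios also followed position in the genome. With genes placed by GENCODE v44 (GRCh38), chromosome medians ran from -0.24 on chromosome 22 to 0.59 on chromosome 21. Chromosomes 1, 6 and 21 were highest, at 0.50, 0.51 and 0.59, and chromosomes 11, 15 and 22 lowest, at -0.18, -0.18 and -0.24. On chromosome 6, 16.7% of 347 tested genes were at least 2-fold higher, and on chromosome 22, 0.588% of 170, against 5.72% of all genes. Over 6274 overlapping runs of 51 neighbouring tested genes the middle range of run medians (quartiles) was 0.11 to 0.32.

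The highest run lay at chr6:42890265-82247754, where 27 of 51 genes were at least 2-fold higher, 50 had a ratio above 0 and the median was 1.00. It holds HSP90AB1, VEGFA and GSTA4 of the genes named above, which had 1727, 36.1 and 38.3 CPM in RES-A. Most genes of this run were also above both parental libraries in RES-A, so the rise was not particular to RES-B. ELOVL5, SDHAF4, SENP6 and MYO6 were below both in RES-A. DST, a cytoskeletal linker, was highest there at 2.29 CPM in LNCaP-ENZ48 and 18.5 CPM in RES-B. Other high runs lay on chromosome 1, at 171781660 to 201399915, 220786352 to 233672514 and 15836095 to 26575030, with medians of 0.81, 0.78 and 0.73. The lowest run lay on the short arm of chromosome 8 with a median of -0.70, 7 of 51 ratios above 0 and 13 genes at least 2-fold lower. DUSP4 lies within it. FTH1 and NEAT1 lie in a low run of chromosome 11 with a median of -0.25, and HMOX1 in one of chromosome 22 with a median of -0.34. Copy number of these regions was not measured here.

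**Figure D5:**
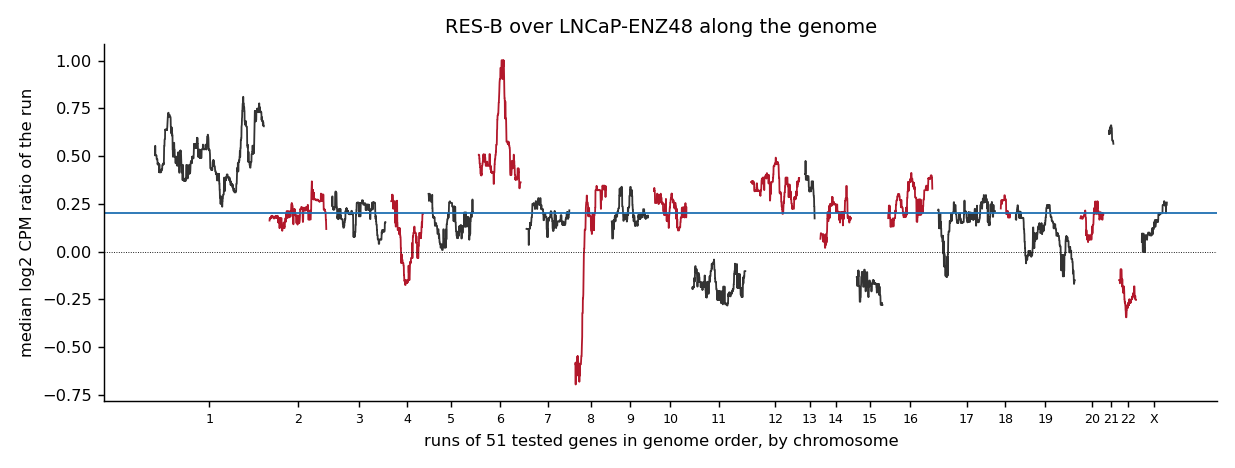
Median log2 CPM ratio (RES-B over LNCaP-ENZ48, y axis) of each run of 51 neighbouring tested genes, in genome order by chromosome (x axis, order only), with the median of all genes (0.20) as a blue line. The runs of chromosome 1 lie above that line, those of chromosomes 11, 15 and 22 lie below 0, and chromosomes 6 and 8 carry the highest (1.00) and the lowest (-0.70) run.

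Promoter letters were counted in the windows of higher, lower and all tested genes, and whether the groups differed was not tested. Windows were matched for 343 of the 426 higher genes, 121 of the 184 lower genes and 6177 of all 7453. AGAACA was present in 10.8% of higher, 8.26% of lower and 8.6% of all tested windows. TATAAA was present in 7%, 8.26% and 4.89%, GGGCGG in 70%, 76% and 72.5%, and CCAAT in 39.1%, 33.1% and 38.5%, with both strands searched and no overlap between these motifs removed. CACGTG, the E-box that MYC binds, was present in 14%, 7.44% and 11.2%. At 4-fold the groups were small. AGAACA was in 9 of 53 higher windows (17%) and 4 of 36 lower ones (11.1%), against 8.6% of all tested windows. TATAAA was in 8 (15.1%) and 4 (11.1%), against 4.89%. Windows of the 4-fold higher and lower genes held a median of 21 and 22 CG pairs, against 27 for all tested windows. Over all 27305 promoter windows, of tested genes or not, AGAACA was in 14.9% and TATAAA in 12%. The part of base composition in these shares was not tested. TSPAN8, the gene with the highest ratio, is shown as one of the 9 higher genes with AGAACA. Its window lies at chr12:71157950-71158249 on the minus strand, with the same motifs in capitals. The window follows a RefSeq start that lies inside the longer GENCODE interval given for the gene above.
TSPAN8: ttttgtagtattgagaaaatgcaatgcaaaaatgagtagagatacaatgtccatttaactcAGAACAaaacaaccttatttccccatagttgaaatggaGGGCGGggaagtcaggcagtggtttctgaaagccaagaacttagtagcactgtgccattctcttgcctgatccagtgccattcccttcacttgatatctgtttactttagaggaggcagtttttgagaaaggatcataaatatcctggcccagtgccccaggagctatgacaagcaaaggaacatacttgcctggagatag
It holds 1 AGAACA, 1 GGGCGG and 1 CG pair.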

How the data were processed

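Single-cell 3′ RNA libraries were made from living, sorted cells, 1 library a condition. The authors made the deposited counts with Cell Ranger 3.0.2 on GRCh38, as UMI counts per gene and barcode with no normalization. From these, barcodes with at least 1500 genes, at least 5000 UMIs and under 20% mitochondrial UMIs were kept, UMIs were summed per gene and library, and CPM was set against library totals. Genes averaging 10 CPM or more over RES-B and LNCaP-ENZ48 were compared. With 1 library a side no test was made. Intervals for a ratio are exact conditional binomial intervals at 95%, those for a level are exact Poisson intervals and those for a share are exact Clopper-Pearson intervals, and all cover counting error only. Where a library had 0 UMIs of a gene, 3 UMIs stood in as the floor, equal to 0.044 CPM in LNCaP-ENZ48 and 0.052 CPM in RES-B. No doublet caller was run, and an alternative left out the 5% of cells with the most UMIs.

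The members and the 52 gene lists were chosen with earlier results of these data known. Named genes were a panel of prostate and highly different genes, the 12 highest and 12 lowest ratios among genes with at least 50 CPM in either library whose sign held in all cell filters, the 6 largest rises and falls in CPM outside mitochondrial and ribosomal protein genes, and up to 2 highest and 2 lowest members of each list. Other members named as past 2-fold, and cluster neighbours, were chosen after their values were seen. Alternatives were other scalings (edgeR 4.0.16 for TMM), cell filters, thinning to 5000 UMIs, G1 cells alone and other CPM minimums, and cells with 10 to 20% mitochondrial UMIs were added after seeing the data. Phases were called with scanpy 1.11.5, and other steps used Python 3.11.15, scipy 1.17.1 and pandas 2.3.3. The ratio and interval code was tested on simulated data. Gene positions came from GENCODE v44 by gene ID (33113 of 33538 matched) and promoter windows from RefSeq. Some genes of these lists and counts are not reported here by name.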

Additional observations from a re-analysis of the deposited data

How the results depend on the processing

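Counts past 2-fold depended on the scale and on the CPM minimum. Against 426 higher genes, TMM scaling gave 226 and median-of-ratios scaling 233. A minimum of 1 CPM gave 1124 higher and 563 lower genes, and a minimum of 50 CPM gave 112 and 45. These follow from the shift of every ratio and from the number of genes compared. Cell filters, thinning and G1 cells alone gave 416 to 536 higher and 166 to 185 lower genes. The median of androgen repressed genes went from -1.55 to 0.0467 at a minimum of 50 CPM, and the median of HOX genes went from 1.16 to -0.76, both with fewer members. Of the 52 list medians, 15 changed sign under TMM, 13 under median-of-ratios and 7 among cells under 10% mitochondrial UMIs. Of 216 named genes, 7, 7 and 19 did so, the last with ratios of at most 0.69 in size over all kept cells. No paired analysis was possible because each condition has 1 library and no test was made, and for the same reason no replicate could be left out. Single libraries limit every value here, since culture, capture and line cannot be told apart.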
